A study of Mus musculus with 15 samples.

Results

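The collagen genes described here were the rows of 15 mammary expression profiles whose name has the form of a collagen chain (Col, a type number, the letter a and a chain number), and 44 of the 52526 gene names matched. By the structure of the protein, 11 encode fibrillar chains, 6 encode basement membrane chains (type IV collagen) and 27 encode other collagens. The profiles came from the left 4th mammary gland of female nude mice (nu/nu, Crl:NU-Foxn1nu), which lack a thymus and keep innate immune cells. BDE-47, a brominated flame retardant of the PBDE class, reached 7 mice through osmotic pumps over 16 weeks (target dose 0.03 mg/kg/d), and 8 mice received the vehicle (PEG300 with 1% DMSO). Pumps were placed after 8 weeks of age. The mice were also used for xenografts, and which mouse carried a xenograft in the region is not in the sample labels. The comparison asks whether collagen mRNA differed between BDE-47 and vehicle mice.

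Collagen chains wind into helical trimers in the endoplasmic reticulum and are secreted. Fibrillar collagens (types I, III and V in soft connective tissue) are then trimmed and assemble into tension-bearing fibrils, whereas type IV collagen forms the sheet-like network under epithelium and around fat cells, vessels and muscle. In the mammary gland, stromal fibroblasts are the main source of fibrillar collagen, and fibrillar collagen around the ducts sets the stiffness of the stroma. Types VI, XII, XIV and XVI link or decorate fibrils, types XV and XVIII sit in basement membrane zones, and types VII and XVII anchor epithelium to the tissue beneath.

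Library depth ran from 10.06 M to 19.58 M mapped reads. Values are log2(CPM), where CPM scales the reads of a gene to the library's mapped reads, in which a gene that stays under 1 CPM appears as 0. This floor stands for 10.06 to 19.58 reads. The libraries were 3′ tag libraries, which give 1 read per transcript, so CPM were compared between genes without correction for length. Markers of other cell types set 3 libraries apart. Vehicle replicates 6 and 8 had all 6 B cell markers above the floor (444 and 649 summed CPM, against 0 to 9.87 in the other 12 mice and 0 in BDE-47 replicate 6). They had low adipocyte markers (375 and 907 summed CPM, against 5820 or more in the other 12 mice) and low luminal and myoepithelial markers (59.5 and 106, against 331 or more in those 12). BDE-47 replicate 6 had 74799 summed CPM of 6 skeletal muscle markers, against 35.4 to 146 in the other 12 mice, and low luminal and myoepithelial markers (105). These are the libraries with the lowest summed collagen CPM, and results are given with and without them. In whole tissue, fewer cells of a type and less RNA per cell cannot be told apart.

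Of the 44 collagen genes, 35 were above the floor in at least 1 mouse and 8 were above it in every mouse, namely Col3a1, Col1a2, Col1a1, Col4a1, Col6a3, Col4a2, Col6a1 and Col6a2. The 9 genes listed at 0 in every mouse were Col2a1, Col10a1, Col11a2, Col19a1, Col22a1, Col24a1, Col25a1, Col26a1 and Col4a3, of which Col2a1 and Col10a1 are the main collagens of cartilage and of its hypertrophic zone. A mouse had between 15 and 28 collagen genes above the floor (median 21). Collagens took 0.0481% to 0.371% of the mapped reads, and this share was lowest in vehicle replicate 6 and highest in vehicle replicate 2.

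The chains of types I and III were the highest collagens on average, and their share of the collagen CPM of a mouse ran from 26.7% (vehicle replicate 5) to 68.2% (vehicle replicate 2), with a median of 48.2% and 6 of 15 mice above 50%. The shares that follow are of the CPM averaged over mice, in which high mice weigh most. Col3a1 (chr1:45311538-45349706, RefSeq on GRCm38.p6), the only chain of type III collagen, held 20.6% of the mean collagen CPM. Col1a2 (chr6:4505618-4541543) held 16.6% and Col1a1 (chr11:94936224-94953042) held 15.5%, and these are the chains of type I collagen. The type IV chains Col4a1 (chr8:11198423-11312889) and Col4a2 (chr8:11312805-11449287) held 8.85% and 4.31%. Col6a3 (chr1:90766860-90844001), the largest chain of the beaded filaments of type VI collagen, held 8.59%. In mean level over the 15 mice, the order was Col3a1 (7.72 log2(CPM)), Col1a2 (7.65), Col1a1 (7.18), Col4a1 (6.89), Col6a3 (6.44) and Col4a2 (5.87). Each gap between neighbours in this order was smaller than the SD over mice of either gene, which was 0.84 to 1.74. Col6a1 followed at 4.82, a gap larger than the SD of either gene.

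**Figure D1:**
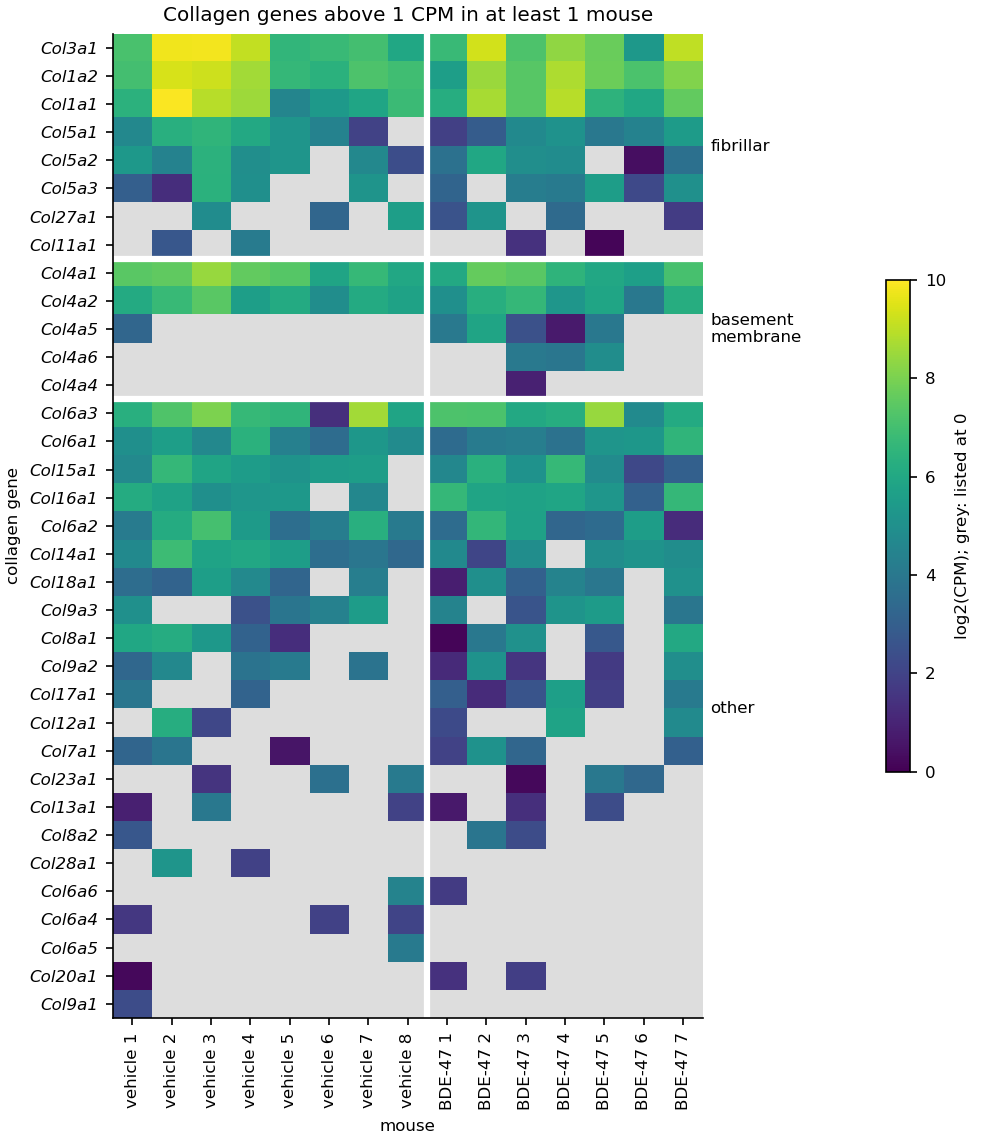
Level of the 35 collagen genes above 1 CPM in at least 1 mouse (rows, by class and then by mean level) in each of the 15 mice (columns), in log2(CPM) by colour, with grey for values listed at 0. The chains of types I and III and the type IV chains Col4a1 and Col4a2 were above the floor in all mice, and most other collagens were listed at 0 in some mice of both groups.

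Collagen genes differed widely from mouse to mouse within a group. Col3a1 spanned 5.33 to 9.81 log2(CPM) over all mice, a 22.3-fold range. Col1a1 spanned 4.53 to 9.94, a 42.5-fold range, and both ends of this range were vehicle mice. The within-group SD was 1.60 for Col1a1, 1.80 for Col6a3 and 1.47 for Col3a1, against a median of 0.998 over the 2579 genes above the floor in every mouse. Col4a1 and Col4a2 varied less, with a within-group SD of 0.84 for each.

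No collagen gene passed the comparison of BDE-47 with vehicle mice. With limma, 0 of the 21 collagen genes above the floor in at least 7 mice reached an adjusted p under 0.05, against 0% of the 9511 genes tested, and the lowest adjusted p was 0.982 both among collagens and over all genes. At an unadjusted limma p under 0.05 the count was also 0 of 21, against 4.66% of all genes tested, and by the exact permutation test it was 0 of 21 against 4.42%. Among the 21 genes, 9 were higher and 12 were lower with BDE-47, where 50.9% of all genes tested were lower (11 and 10 with median-of-ratios scaling). The median difference in mean log2(CPM) was -0.09, against -0.02 over all genes. Past a 2-fold difference of group means, Col17a1 and Col16a1 were higher (2 of 21, against 13% of all genes tested) and Col14a1 was lower (1 of 21, against 13.2%). The values of the vehicle and BDE-47 mice overlapped for all 35 genes above the floor in any mouse. For genes listed at 0 in mice of both groups this overlap is given in advance. The share over all genes was not counted, so this is a description only.

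**Figure D2:**
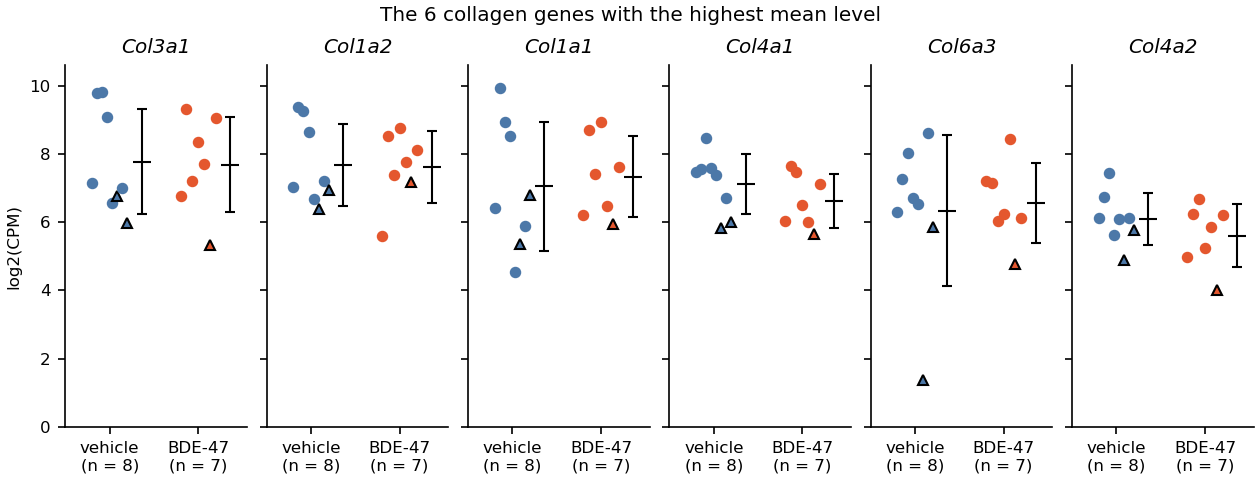
Level in log2(CPM) of the 6 collagen genes with the highest mean, for each vehicle mouse (blue, n = 8) and BDE-47 mouse (red, n = 7), with the group mean and SD in black. Triangles mark vehicle replicates 6 and 8 and BDE-47 replicate 6, and the groups overlap for every gene.

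The chains of types I and III overlapped widely between the groups. Col3a1 was 5.97 to 9.81 log2(CPM) in vehicle mice (median 7.07) and 5.33 to 9.33 in BDE-47 mice (median 7.72). The group means were 7.77 ± 1.54 (SD, n = 8) and 7.68 ± 1.39 (SD, n = 7), and the 95% confidence interval of the difference was -1.17 to 1.00. Vehicle replicates 2, 3 and 4 and BDE-47 replicates 2 and 7 were above 9, and the other 10 mice were below it. Col1a2 was 6.38 to 9.38 in vehicle mice (median 7.11) and 5.60 to 8.76 in BDE-47 mice (median 7.77), a difference of means of -0.07 (SE 0.47). Col1a1 was 4.53 to 9.94 (median 6.61) and 5.94 to 8.93 (median 7.41), a difference of 0.28 (SE 0.59). For these chains the medians were higher with BDE-47, whereas the difference of means was below 0 for Col3a1 and Col1a2 (and just above 0 with median-of-ratios scaling). The 95% intervals were -1.01 to 0.88 for Col1a2 and -0.91 to 1.46 for Col1a1. So changes somewhat under 2-fold in either direction were not excluded for these 3 chains. The intervals of Col1a1 (upward) and Col3a1 (downward) also took in changes of more than 2-fold.

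Type V collagen starts fibril assembly with type I, and its chains were lower in level and listed at 0 in some mice. Col5a1 was listed at 0 in vehicle replicate 8 and otherwise reached 6.54 in vehicle mice (median of the group 4.93), and it was 1.88 to 5.48 in BDE-47 mice (median 4.43). Col5a2 was listed at 0 in vehicle replicate 6 and BDE-47 replicate 5, with medians of 4.82 and 3.74 and highest values of 6.41 and 5.95. The difference for Col5a2, -0.81 (SE 1.00), was the third most negative among the 21 genes and did not pass (exact permutation p = 0.479). It was -0.25 without BDE-47 replicate 5 and -1.41 without vehicle replicate 6. Col5a3, the third chain of type V, was above the floor in 5 of 8 vehicle and 6 of 7 BDE-47 mice, and Col27a1 in 3 of 8 and 4 of 7. Col11a1, found in cartilage fibrils, was above it in 2 mice of each group.

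Of the type IV chains, the tested Col4a1 and Col4a2 were lower on average with BDE-47 without passing a test. Col4a1 was 5.83 to 8.46 log2(CPM) in vehicle mice (median 7.42) and 5.64 to 7.63 in BDE-47 mice (median 6.49). The means were 7.13 ± 0.89 (SD, n = 8) and 6.62 ± 0.78 (SD, n = 7). The difference of -0.51 (SE 0.45) had an unadjusted limma p of 0.264 and an exact permutation p of 0.263. Col4a1 was above the vehicle mean in 2 of 7 BDE-47 mice, so most of the treated mice lay in the lower part of the vehicle range. Col4a2 was 4.89 to 7.44 in vehicle mice (median 6.10) and 4.00 to 6.67 in BDE-47 mice (median 5.86), with a difference of -0.49 (SE 0.52, exact permutation p = 0.277). Markers of endothelium, whose basement membrane holds these chains, summed to 52.8 to 359 CPM in vehicle mice (median 196) and 51.6 to 227 in BDE-47 mice (median 148), with all 6 markers above the floor in at least 1 mouse. Adipocyte markers summed to 375 to 22956 CPM (median 16785) and 3728 to 11884 CPM (median 9706), again with none of 6 at 0 in every mouse. Their part in the difference was not tested.

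Col4a5 and Col4a6, the chains of a second type IV network, were found mostly in BDE-47 mice, and their values are given after they were seen. Col4a5 reached 3.29 log2(CPM) in vehicle replicate 1 and was listed at 0 in the other 7 vehicle mice. It was detected in 5 BDE-47 mice, at 0.72 to 5.83. Col4a6 had a value of 0 in every vehicle mouse and was 4.03, 3.91 and 4.90 in BDE-47 replicates 3, 4 and 5. So the groups overlapped at 0 for both genes. BDE-47 replicates 3, 4 and 5 held both chains, with Col4a5 at 2.49, 0.72 and 3.99. The highest Col4a5 values, in BDE-47 replicates 2 and 1 (5.83 and 4.04), came with Col4a6 at 0. Too few mice were above the floor for the test over all genes, and taken alone the exact permutation p was 0.0499 for Col4a5 and 0.0769 for Col4a6, neither adjusted. With single mice left out, the exact permutation p of Col4a5 ran from 0.021 (vehicle replicate 1) to 0.137 (BDE-47 replicate 1, 2 or 5). Among the 35 collagens above the floor in any mouse, 4 were higher by more than 2-fold (these and Col16a1 and Col17a1), against 9.97% of the 16314 genes above the floor in any mouse. Col4a4 was above the floor in 1 mouse, BDE-47 replicate 3, and its partner Col4a3 in none. Vehicle replicate 1 and BDE-47 replicates 3 and 1, which held Col4a5, had the most genes of any kind above the floor (11490, 12689 and 10044). BDE-47 replicates 2, 4 and 5, which also held Col4a5, had 8378, 6932 and 8504. The part of the number of genes detected in these collagen values was not tested.

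Col4a5 and Col4a6 lie head to head on chromosome X. Their annotated start sites are 1343 bases apart (RefSeq, GRCm38.p6). Col4a1 and Col4a2 lie head to head on chromosome 8 with start sites 21 bases apart, and the starts of these 2 genes overlap on opposite strands. The promoter sequences of Col4a5 and Col4a6 are shown because Col4a5 was also above the floor in the 3 BDE-47 mice that held Col4a6. Each run ends where the annotated gene begins, which is 49 bases (Col4a5) and 19 bases (Col4a6) before the start site used for the distance above, and is written 5′ to 3′ on the strand of the gene. Capitals mark a CCAAT box (CCAAT or its reverse ATTGG), a GC box (GGGCGG or CCGCCC) or a TATA box (TATAAA or TTTATA).
Col4a5 (chrX:141475169-141475369, plus strand): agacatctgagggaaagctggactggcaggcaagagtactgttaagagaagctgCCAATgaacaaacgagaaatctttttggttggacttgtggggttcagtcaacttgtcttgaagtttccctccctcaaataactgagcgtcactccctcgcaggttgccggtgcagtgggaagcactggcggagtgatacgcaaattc
Col4a6 (chrX:141474096-141474326, minus strand): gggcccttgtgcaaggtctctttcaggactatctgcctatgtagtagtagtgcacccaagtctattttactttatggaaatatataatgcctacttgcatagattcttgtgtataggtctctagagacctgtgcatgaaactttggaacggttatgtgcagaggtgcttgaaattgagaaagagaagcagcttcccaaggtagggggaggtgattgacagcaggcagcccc
The Col4a5 run holds a CCAAT box 196 bases before that start site, and the Col4a6 run holds none of these motifs. A match is a description of the letters and not of binding.

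Among the other collagens, the type VI chain Col6a3 was the highest. Col6a3 was 1.36 to 8.63 log2(CPM) in vehicle mice (median 6.62) and 4.77 to 8.45 in BDE-47 mice (median 6.24), and the value of 1.36 was that of vehicle replicate 6. Its difference was 0.23 with all mice and -0.38 without the 3 libraries that stand apart, so its sign rests on them. Col6a1 was 3.53 to 6.37 (median 4.90) and 3.51 to 6.52 (median 4.29), a difference of -0.27 (SE 0.64). Col6a2 was 3.60 to 7.05 (median 4.84) in vehicle mice and 1.26 to 6.64 (median 3.54) in BDE-47 mice. In 4 of 7 BDE-47 mice Col6a2 was below the lowest vehicle value, while the other 3 were above 5. The difference of -0.92 (SE 0.75) was the second most negative and did not pass (exact permutation p = 0.275), and it was -0.42 without BDE-47 replicate 7.

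Among the 21 tested genes, the 3 largest positive differences were in collagens outside the fibrillar and basement membrane classes. Col17a1, a transmembrane collagen of hemidesmosomes in basal epithelial cells, was detected (above the floor) in 6 of the 7 BDE-47 mice and 2 of the 8 vehicle mice. Its values were 0 to 3.92 log2(CPM) in vehicle mice (median 0) and 0 to 5.64 in BDE-47 mice (median 2.59). The difference of 1.75 (SE 0.95) had an unadjusted limma p of 0.0732, an adjusted limma p of 0.982 and an exact permutation p of 0.0786. Luminal and myoepithelial markers summed to 59.5 to 1171 CPM in vehicle mice (median 799) and 105 to 1591 in BDE-47 mice (median 941), with none of 6 at 0 in every mouse. Markers of keratinocytes summed to 20.0 to 51.7 CPM (median 24.6) and 22.2 to 50.2 (median 40.7), with Dsg1a at 0 in all mice. Their part in this difference was not tested.

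Col16a1, which associates with fibrils and with epithelial basement membranes, was 0 to 6.16 log2(CPM) in vehicle mice (median 5.11) and 3.10 to 6.67 in BDE-47 mice (median 5.84). It was listed at 0 in vehicle replicates 6 and 8 and in no other mouse. The difference was 1.59 (SE 0.84, unadjusted limma p = 0.0649, exact permutation p = 0.184) with all mice. It was 0.25 (SE 0.59, exact permutation p = 0.698) without vehicle replicates 6 and 8. Without BDE-47 replicate 6 as well, it was 0.66 (SE 0.52, unadjusted exact permutation p = 0.0671). So the 2-fold difference of Col16a1 rests on those libraries, and a smaller positive difference remained in both sets. Col7a1, the collagen of anchoring fibrils, was above the floor in 3 of 8 vehicle and 4 of 7 BDE-47 mice, with highest values of 3.91 and 5.10. Its difference was 0.96 (SE 0.90), and 0.43 without BDE-47 replicate 2.

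The most negative difference was that of Col14a1, which binds the surface of fibrils in stroma and tendon. It was 3.36 to 6.87 log2(CPM) in vehicle mice (median 5.16) and 0 to 5.13 in BDE-47 mice (median 4.90). None of the 7 BDE-47 mice was above the vehicle median, and BDE-47 replicates 2 and 4 (2.07 and 0) were below every vehicle mouse. The difference of -1.18 (SE 0.80) had an unadjusted limma p of 0.151, an adjusted limma p of 0.982 and an exact permutation p of 0.2. Without BDE-47 replicate 4 it was -0.54.

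The remaining tested collagens of this class had small differences of both signs. Col15a1 and Col18a1, whose ends give endostatin-like fragments, had differences of -0.17 (SE 0.80) and 0.12 (SE 1.08). Col8a1, a short chain collagen of vessels, was above the floor in 5 mice of each group (difference -0.17, SE 1.22). The fibril-associated chains Col9a2 and Col9a3 were also above it in 5 mice of each group, with differences of -0.39 (SE 1.10) and 0.43 (SE 1.16). The other 10 genes of the class above the floor in any mouse (Col12a1, Col23a1, Col13a1, Col8a2, Col28a1, Col6a6, Col6a4, Col6a5, Col20a1 and Col9a1) were above it in 1 to 6 mice. Col28a1, Col6a4, Col6a5 and Col9a1 were so in vehicle mice alone, in 2, 3, 1 and 1 of them, and the exact permutation p was 0.2 or higher for each of these 4.

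Collagen values listed at 0 came from genes that other mice held well above the floor. Of the 315 values of the 21 tested genes, 52 were 0, and they came from 13 genes. At the median level of the gene in the mice above the floor, the libraries listed at 0 would have held 103 to 844 reads. For Col16a1 the level elsewhere was 54.3 CPM, which at the depth of vehicle replicates 6 and 8 corresponds to 844 and 650 reads. Of the 52 zeros, 8, 10 and 7 fell in vehicle replicate 6, vehicle replicate 8 and BDE-47 replicate 6, and each other mouse had 0 to 4.

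**Figure D3:**
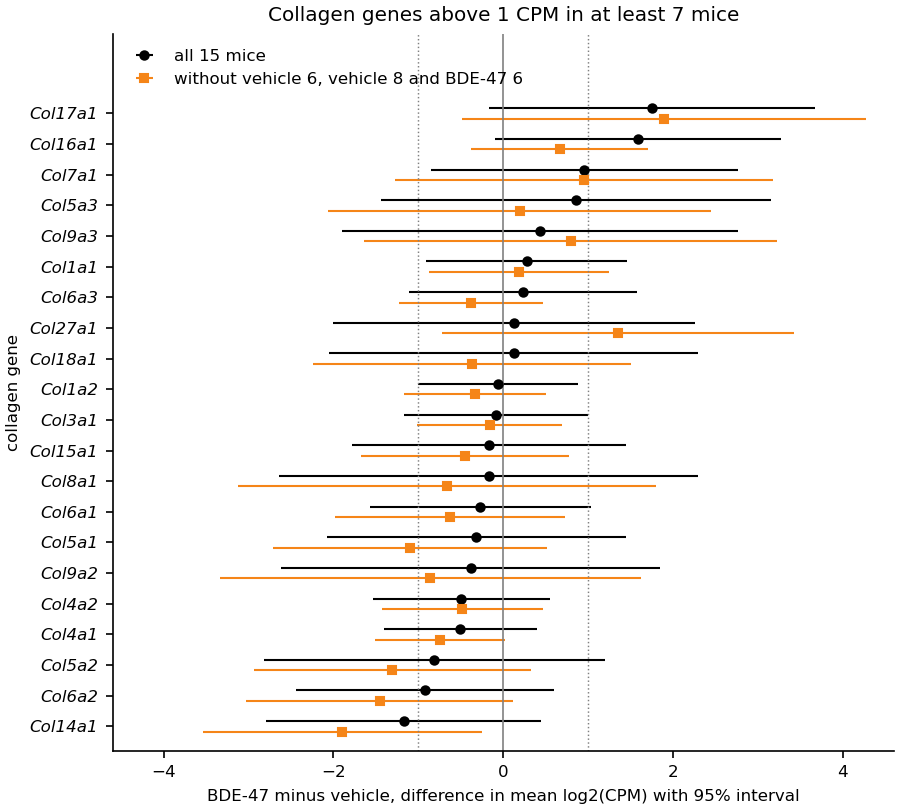
Difference in mean log2(CPM), BDE-47 minus vehicle, of the 21 tested collagen genes, with the 95% interval from limma, for all 15 mice (black circles) and without vehicle replicates 6 and 8 and BDE-47 replicate 6 (orange squares). Dotted lines mark a 2-fold difference, and with all mice every interval includes 0.

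The collagen differences shifted downward without the libraries with B cell markers, and the choice of libraries favours this direction. Vehicle replicates 6 and 8 had the lowest summed collagen CPM of the vehicle mice (481 and 647). BDE-47 replicate 6, similarly low at 513, was kept at first. Leaving out these vehicle libraries raises the vehicle level, so the counts that follow are not separate support for a difference. Without vehicle replicates 6 and 8, 16 of 21 genes were lower with BDE-47 (53.4% of all genes tested were), and the median difference was -0.68 (-0.07 over all genes). By class, 6 of 7 fibrillar, 2 of 2 basement membrane and 8 of 12 other genes were lower. Lower by more than 2-fold were 6 genes (Col5a1, Col5a2, Col6a2, Col8a1, Col9a2 and Col14a1), against 14.2% of all genes tested. An unadjusted limma p under 0.05 was reached by 3 of 21 (Col4a1, Col5a2 and Col14a1, each lower), against 4.51% of all genes, and by 0 after adjustment (lowest adjusted limma p among collagens 0.99). Col4a1 differed by -0.91 (SE 0.42), with an unadjusted exact permutation p of 0.0402. Without BDE-47 replicate 6 as well, 14 of 21 were lower (50% of all genes), with a median of -0.38. Then 4 were lower by more than 2-fold (Col5a1, Col5a2, Col6a2 and Col14a1, against 14.4% of all genes) and 1 (Col14a1, -1.89, SE 0.82) had an unadjusted limma p under 0.05, against 4.68%. No collagen gene passed after adjustment in either set of mice.

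Summed over chains, each collagen class also overlapped between the groups. Fibrillar collagens summed to 266 to 2642 CPM in vehicle mice (median 416) and 264 to 1531 in BDE-47 mice (median 581). Basement membrane collagens summed to 86.6 to 526 CPM (median 239) and 65.8 to 331 (median 168). The other collagens summed to 128 to 777 CPM (median 429) and 173 to 592 (median 428). On the log2 scale the group means differed by -0.03, -0.33 and 0.05 for these classes. They were -0.41, -0.69 and -0.40 without vehicle replicates 6 and 8, and -0.20, -0.46 and -0.20 without BDE-47 replicate 6 as well. The basement membrane value ran from -0.52 (without vehicle replicate 6) to -0.11 (without BDE-47 replicate 6) over single mice left out, and it was 0.50 as a mean of log2(CPM) over the genes. Fibrillar chains made up 32.0% to 71.1% of collagen CPM in vehicle mice and 35.0% to 70.0% in BDE-47 mice. The ratio of fibrillar to basement membrane CPM varied from 1.25 to 9.25 over the mice, with medians of 3.01 and 4.17. Markers of fibroblasts, the main source of fibrillar chains, summed to 351 to 1576 CPM in vehicle mice (median 714) and 506 to 1259 in BDE-47 mice (median 795), with none of 6 at 0 in every mouse, and their part in these levels was not tested.

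**Figure D4:**
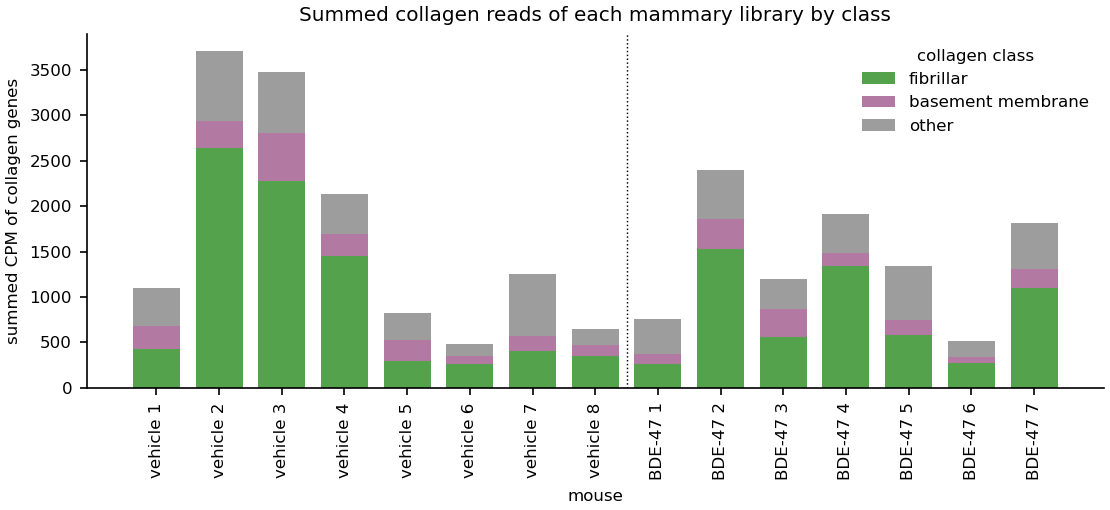
Summed CPM of the fibrillar, basement membrane and other collagen genes (stacked bars) in each of the 15 mice. The sum runs from 481 to 3714 CPM in vehicle mice and from 513 to 2398 CPM in BDE-47 mice, and fibrillar chains account for most of the difference between high and low mice.

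Chains that assemble into one molecule or fibril were compared across the 15 mice for 6 pairs, with permutation tests and Benjamini-Hochberg adjustment over the pairs. Col1a1 and Col1a2, whose products form the type I trimer, varied together (Pearson's r = 0.88, permutation p = 3e-05, adjusted p = 0.00015, and Spearman's rho = 0.88, adjusted permutation p = 0.00012). Col1a1 and Col3a1, chains of types I and III that share fibrils, had r = 0.84 (permutation p = 0.00012, adjusted 0.00024) and rho = 0.83 (permutation p = 0.00031, adjusted 0.00093). Col4a1 and Col4a2, the chains of the common type IV trimer, had r = 0.83 (permutation p = 5e-05, adjusted 0.00015) and rho = 0.79 (permutation p = 0.00081, adjusted 0.00162). These 3 pairs kept r between 0.72 and 0.86 without the 2 mice farthest from the median of the first chain, and between 0.82 and 0.88 on deviations from the group means. Without the 3 libraries that stand apart r was 0.87, 0.89 and 0.78.

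For the other 3 pairs no such relation was detected over all mice. Col5a1 and Col5a2 had r = 0.25 (permutation p = 0.376) and rho = 0.41 (permutation p = 0.131). Col6a1 and Col6a2 had r = -0.05 (permutation p = 0.848) and rho = 0.06 (permutation p = 0.842), and Col6a1 and Col6a3 had r = 0.30 (permutation p = 0.288) and rho = 0.20 (permutation p = 0.476). Adjusted over the pairs, the p-values of r were 0.451, 0.848 and 0.433 and those of rho were 0.197, 0.842 and 0.571. Without the 2 mice farthest from the median of the first chain, r was 0.19, 0.38 and 0.44. By group, r was 0.43, 0.43 and 0.64 in vehicle mice and -0.09, -0.45 and -0.20 in BDE-47 mice, and this contrast was not tested. The type V pair includes values listed at 0. For the type VI chains, which form one trimer, a relation like that of types I and IV was not detected. As a description with no test, within-group correlations over the 28 pairs of the 8 collagens above the floor in every mouse ran from -0.11 to 0.88 (median 0.39), and over all pairs of the 2579 such genes the median was 0.03. The points share library depth, and the 3 fibrillar pairs had a median of 0.84.

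**Figure D5:**
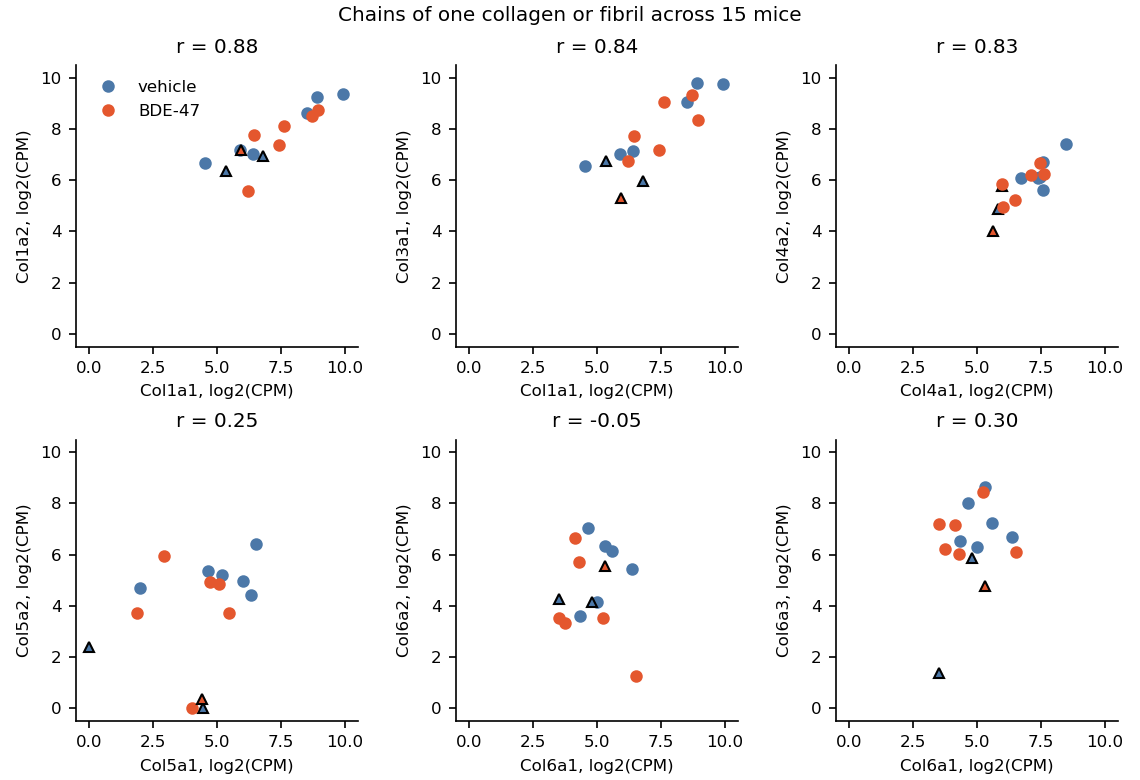
Level in log2(CPM) of 6 pairs of collagen chains (axes) in vehicle mice (blue) and BDE-47 mice (red), 1 point per mouse, with Pearson's r above each panel and triangles for the 3 libraries that stand apart. Types I, III and IV lie along a line in both groups, and the chains of types V and VI show no such line.

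The balance between paired chains did not differ detectably with BDE-47. Col4a1 was above Col4a2 in 15 of 15 mice, by 1.03 ± 0.53 (SD, n = 8) on the log2 scale in vehicle mice and 1.02 ± 0.49 (SD, n = 7) in BDE-47 mice (exact permutation p = 0.963). Col1a1 was above Col1a2 in 5 of 15 mice, with log2 ratios of -0.63 ± 0.84 (SD, n = 8) and -0.29 ± 0.75 (SD, n = 7) and an exact permutation p of 0.418. For all 6 pairs, the exact permutation p of the ratio adjusted over the pairs was 0.845 or higher.

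Promoters of Col1a2 and Col3a1 are shown because these fibrillar chains varied together (within-group r = 0.84). The runs are the 250 bases before the annotated start, with the same motifs in capitals.
Col1a2 (chr6:4505368-4505617, plus strand): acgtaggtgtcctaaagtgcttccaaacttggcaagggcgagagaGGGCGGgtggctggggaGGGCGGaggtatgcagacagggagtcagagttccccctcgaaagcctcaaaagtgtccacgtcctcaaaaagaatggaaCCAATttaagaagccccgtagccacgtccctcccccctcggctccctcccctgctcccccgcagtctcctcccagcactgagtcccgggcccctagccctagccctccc
Col3a1 (chr1:45311288-45311537, plus strand): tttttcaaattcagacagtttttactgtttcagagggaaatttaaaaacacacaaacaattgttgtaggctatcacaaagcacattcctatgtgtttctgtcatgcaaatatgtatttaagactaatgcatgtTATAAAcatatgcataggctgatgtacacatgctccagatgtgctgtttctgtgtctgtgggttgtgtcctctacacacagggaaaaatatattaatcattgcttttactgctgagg
The Col1a2 run holds GC boxes 205 and 188 bases before the start and a CCAAT box 109 bases before it, whereas the Col3a1 run holds a TATA box 117 bases before the start and none of the other motifs. So the letters of these windows differ between chains that varied together. Of the 44 collagen genes, 35 had a promoter in the RefSeq table (38 windows from 250 bases before to 50 after the start). Only the 250 bases before the start were searched in each window. A GC box was in 57.9% of the collagen windows and in 32.7% of all 32851 windows, a CCAAT box in 34.2% and 33.8%, and a TATA box in 13.2% and 12.4%, on either strand.

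Genes that fold, trim, cross-link, degrade, bind or induce collagen were read from lists of 66 genes in all, of which 65 were found by name and 43 were tested. By limma, 0 of 43 passed after adjustment, 1 had an unadjusted p under 0.05 (4.66% of all genes did), and 25 were higher and 18 lower with BDE-47. Past a 2-fold difference, 9 were higher and 2 lower, against 13% and 13.2% of all genes. Of 12 tested genes for chain folding and modification in the endoplasmic reticulum, 6 were higher and 6 lower. P3h1, which hydroxylates prolines of type I chains, was detected in all 7 BDE-47 mice against 3 of 8 vehicle mice (0 to 4.05 log2(CPM), median 0, in vehicle and 1.84 to 5.44, median 3.78, in BDE-47 mice). So 3 BDE-47 mice lay above the highest vehicle mouse, and all 7 lay above the vehicle median. The difference of 2.66 (SE 1.03) had an unadjusted limma p of 0.0132, an exact permutation p of 0.00668 and adjusted p-values of 0.982 by limma and 0.998 by the exact test. It was 3.01 (SE 1.21) without the 3 libraries that stand apart. Fkbp10, a folding helper of the same compartment, had the most negative difference of the list (-0.89, SE 1.05), and it was -0.47 without BDE-47 replicate 7.

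All 4 tested genes for removal of the propeptides were higher with BDE-47 without passing when all mice were used (median 0.69). Bmp1, the protease that cuts the carboxyl-terminal propeptide of fibrillar collagens, likewise passed the floor in 7 of 7 BDE-47 mice (1.99 to 5.12, median 3.72) and in 3 of 8 vehicle mice (0 to 5.18, median 0). Its difference of 2.07 (SE 1.07) had an unadjusted limma p of 0.0594, an unadjusted exact permutation p of 0.0449 and an adjusted exact permutation p of 0.998. P3h1 and Bmp1 were the 2 of 43 partner genes with an unadjusted exact p under 0.05, against 4.42% of all genes. Without the 3 libraries that stand apart the Bmp1 difference was 1.73 (SE 1.24). Pcolce, which enhances this cleavage, had the smallest difference of the list (0.40, SE 1.13), which turned to -0.0089 without vehicle replicates 6 and 8, -0.13 without BDE-47 replicate 6 as well, -0.087 without BDE-47 replicate 2 alone and -0.057 with the replicate number as a block. The zeros described for the collagens apply to these genes too.

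The remaining lists held differences of both signs, and none of their genes passed. Among the 4 tested lysyl oxidases, which cross-link collagen, 2 were higher and 2 lower, from Loxl2 (0.37, SE 0.75) to Loxl3 (-0.59, SE 1.02). Loxl2 was 0.11 without BDE-47 replicate 7, and Loxl3 was -0.29 without BDE-47 replicate 4. Of 10 tested genes for collagen breakdown and its inhibitors 7 were higher, from Ctsk, the collagen-cutting cathepsin of osteoclasts and fibroblasts (1.57, SE 1.16), to Fap, a protease of activated fibroblasts (-1.19, SE 0.90). Of 5 tested collagen receptors 2 were higher, from Ddr1, the collagen receptor kinase of epithelium (0.86, SE 0.66), to Itga1, the α1 chain of an integrin that binds type IV collagen (-0.67, SE 0.94). Ddr1 was 0.19 without vehicle replicate 6, and Itga1 was -0.077 without BDE-47 replicate 5. Of 8 tested genes of TGF-beta signalling, which induces fibrillar collagens, 4 were higher, from Tgfb2 (1.53, SE 1.09) to Smad2 (-1.65, SE 1.02).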

How the data were processed

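RNA of mammary tissue from 15 mice (8 vehicle, 7 BDE-47, grouped by the treatment in the labels) was sequenced as QuantSeq 3′ FWD libraries, 1 per mouse. STAR was the authors' aligner, on the mouse RefSeq genome (version 2.5.3a and GRCm38 in the submitters' processing notes), and they scaled reads to CPM. The deposited values are log2(CPM), with genes under 1 CPM set to 0. Both the log2 scale and this floor were inferred from the numbers, and the counting tool and strand setting are not given in the sources used here. Depth was recovered from the spacing of low CPM values, which were whole reads within 0.1 read in 100% of cases. Of 52636 entries per mouse, 110 repeating a name were dropped (the entry with the highest mean was kept).

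Genes above 1 CPM in at least 7 mice (9511) were tested with limma 3.58.1 (trend) in R 4.3.3, and with an exact two-sided permutation test over 6435 assignments, whose smallest p is 0.000155, both with Benjamini-Hochberg adjustment. Correlations used 100000 permutations (two-sided). Collagens never above the floor, or above it in fewer than 7 mice, were described without the test over all genes. The study's xenograft covariate is not given per mouse and was not used. Steps were tested on simulated data. Promoters and positions came from RefSeq tables of GRCm38.p6. Alternatives were other pseudocounts, filters and scaling, no trend, the replicate block and each mouse left out. Python 3.11.15, numpy 2.4.6, scipy 1.17.1, pandas 2.3.3 and matplotlib 3.10.9 were used.

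Any collagen above the floor in 1 mouse could be named. Values by group were given for the 6 highest collagens, the chains of the pairs compared, the 3 most positive and 3 most negative differences among tested collagens, and the most positive and most negative difference of each partner list. Col4a5 and Col4a6 were added after their values were seen. The collagen genes, classes, partner lists and marker lists were chosen with earlier results of these data known. Leaving out the 3 libraries with markers of other tissues was added after seeing the data.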

Additional observations from a re-analysis of the deposited data

Results flagged for a closer look

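In 3 of 48 groups of collagen values examined, 1 mouse lay far from the others of its group, where chance gives about 1 in 20. Col6a3 was 1.36 log2(CPM) in vehicle replicate 6, and the nearest vehicle mouse was at 5.85. Col15a1 was listed at 0 in vehicle replicate 8, with the nearest vehicle mouse at 4.70. Col16a1 was 3.10 in BDE-47 replicate 6, with the nearest BDE-47 mouse at 5.27. These are the 3 libraries that stand apart by markers of B cells or skeletal muscle, and the part of the markers in these values was not tested.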

How the results depend on the processing

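No tested collagen or partner gene reached an adjusted limma p under 0.05 under any of the alternatives run. With log2(CPM + 0.1), 4 collagens were higher by more than 2-fold and 1 (Col17a1) had an unadjusted exact p under 0.05. This pseudocount widens the differences of genes with unequal zeros (Col17a1 from 1.75 to 3.79). Without vehicle replicates 6 and 8, the vehicle mice with the lowest summed collagen CPM, 6 collagens were lower by more than 2-fold (14.2% of all genes tested were). In that set 1 (Col4a1) had an unadjusted exact p under 0.05. Without BDE-47 replicate 6 as well, 4 were lower by more than 2-fold, against 14.4% of all genes tested. With single mice left out, 2 to 4 collagens were higher and 0 to 3 lower by more than 2-fold (4 higher without BDE-47 replicate 6, 0 lower without vehicle replicate 2, 3 lower without vehicle replicate 6), and 0 to 1 had an unadjusted exact p under 0.05. Shares over all genes were not counted with this pseudocount or with single mice left out, so these counts show no trait particular to collagens. The mean log2(CPM) over basement membrane genes in place of their summed CPM gave 0.50 instead of -0.33, because Col4a5 and Col4a6 then weigh as much as Col4a1. The chain correlations kept their side of p = 0.05 under the 4 alternatives run for each.

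Differences with small values changed sign. With median-of-ratios scaling Col3a1 was 0.0053 and Col1a2 0.025. With log2(CPM + 0.1) Col5a1 was 0.10. Without vehicle replicates 6 and 8, Col1a1 was -0.045 and Col6a3 -0.68, and without BDE-47 replicate 6 as well Col6a3 was -0.38. Over single mice left out, Col3a1 ranged from -0.36 to 0.30, Col1a2 from -0.26 to 0.27, Col1a1 from -0.083 to 0.69, Col6a3 from -0.48 to 0.56, Col5a1 from -0.94 to 0.049 and Pcolce from -0.087 to 1.00. Pcolce was -0.0089 without vehicle replicates 6 and 8 and -0.13 without BDE-47 replicate 6 as well. The cause was not tested.

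Mice with the same replicate number had low correlations (same-numbered deviations from -0.02 to 0.05, none over 0.1), yet 4 of 7 numbers matched best with their own. Whether the numbers mark a shared structure was not tested. With the replicate block, 0 collagens passed after adjustment, 8 were higher and 13 lower, and Pcolce was -0.057. The share of higher and lower genes over all genes was not counted with the block. Depth limits values under 1 CPM, and zeros of well-expressed genes limit the 13 collagens that hold them.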
